A study of Mus musculus with 8 samples.

Results

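Matrix metalloproteinases are zinc-dependent enzymes that cut collagen and other proteins of the extracellular matrix, and tissue inhibitors of metalloproteinases (TIMPs) block their active sites. The genes described here were 6 metalloproteinases, Mmp2, Mmp3, Mmp9, Mmp11, Mmp13 and Mmp14, and the 4 inhibitors Timp1, Timp2, Timp3 and Timp4. They were chosen by name, and every probe carrying one of these names was taken, which gave 10 of 27962 gene names and 14 of 41174 probes on the array. All 14 passed the filter on dim probes that left 33060 probes for testing. In bone, osteoblasts make several of these enzymes to clear old matrix. Metalloproteinases are made as inactive precursors, and other proteases, or membrane-bound metalloproteinases, remove the part that keeps them inactive.

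The RNA came from MC3T3-E1 cells, mouse osteoblasts of a line that came from skull bone, which shared their cultures with tumour cells in alpha MEM with 10% serum. The groups were Jagged1 MRK-003 (tumour cells overexpressing the Notch ligand Jagged1, with the gamma-secretase inhibitor MRK-003), Jagged1 DMSO (the same tumour cells with the solvent), vector MRK-003 (control tumour cells with the inhibitor) and vector DMSO (control tumour cells with the solvent). All 4 groups were co-cultures, so none shows osteoblasts alone, and all had 2 biological replicates on 1 array each. Gamma-secretase frees the active part of Notch receptors, so the design compares the effect of a Notch ligand with and without the enzyme that Notch signalling needs. The sources used here do not give the tumour line, its species, the length of culture, the dose of MRK-003 or any separation of the cell types.

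Each array compared Cy3-labelled co-culture RNA with a Cy5-labelled commercial mouse reference RNA, and every level below is log2 of Cy3 over Cy5. A level therefore says how far a gene stood above or below the reference RNA, and the levels of different probes cannot be set against each other. Replicate 1 of every group lay on 1 slide and replicate 2 on the other. The replicate 1 arrays were brighter, with a median Cy3 signal of 165 to 204 against 76.5 to 117 on the replicate 2 arrays. Each group had the same position on both slides, so group and position cannot be told apart. On Jagged1 MRK-003 replicate 2 and both Jagged1 DMSO arrays, 5 to 23 spots had a local background above 500, and no spot did on the other 5. Values of dim probes differed when each array's median background took the place of every spot's own. Both are given for some of these probes, and other levels use each spot's own background. The part of the high-background spots in these differences was not tested.

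Of the osteoblast markers, 9 of 9 were well above background on all 8 arrays, with a mean level of 0.57 to 1.31 per array. The 7 epithelial, 6 macrophage and 5 osteoclast markers tested were also well above background on all 8 arrays. Detection therefore did not single out osteoblasts. The osteoclast means were 0.34 to 0.46, also above the reference RNA. Epithelial markers had 7 of 8 genes tested, with Cdh1 too dim, and array means of -3.11 to -2.37 in Jagged1 MRK-003, -2.72 to -2.27 in Jagged1 DMSO, -3.07 in vector MRK-003 and -3.21 to -3.13 in vector DMSO. With the array's median background the epithelial means ran from -3.22 to -2.97 over all arrays. All 6 macrophage markers were tested, with means of -2.69 to -1.77 in Jagged1 MRK-003, -2.32 to -1.68 in Jagged1 DMSO, -2.77 to -2.66 in vector MRK-003 and -2.81 to -2.70 in vector DMSO. With the median background they ran from -2.90 to -2.65 over all arrays. The part of other cells in the results below was not tested, and in such mixed RNA fewer cells of a type and less RNA per cell cannot be told apart. The better-detected of 2 probes for Jag1, the overexpressed gene, stood at 1.99 and 1.80 in Jagged1 MRK-003, 3.22 and 3.01 in Jagged1 DMSO, 1.83 and 2.01 in vector MRK-003, and 2.15 and 1.94 in vector DMSO. It was thus highest in Jagged1 DMSO, and in Jagged1 MRK-003 replicate 2 it was lowest of the 8. With the median background the Jagged1 MRK-003 arrays stood at 2.00 and 2.10, within the vector arrays' range of 1.83 to 2.16.

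With MRK-003 in the Jagged1 co-cultures, Mmp11, Mmp13 and Timp3 had the largest changes among the 14 probes. Mmp11 was lower with MRK-003, with a change of -1.53 on the log2 scale. It was called in limma (adjusted p = 0.0414), but not with median centring in place of loess or when an array was left out. Mmp13 had a similar change of -1.65 and Timp3 one of 1.42, and these passed only in fits that took the slide into account or corrected the background in another way. The other 11 probes had changes between -0.66 and 0.18 in that comparison, and none was called in any fit run here. The 250 bases before the RefSeq start of the 3 genes (build GRCm38.p6) are shown because they are the region next to which transcription of these genes begins. Mmp11 lies on the minus strand (chr10:75932503-75932752), Mmp13 on the plus strand (chr9:7272264-7272513) and Timp3 on the plus strand (chr10:86300162-86300411). Capitals mark matches to the AP-1 motif TGANTCA, the RUNX motif AACCACA or the RBPJ motif GTGGGAA on either strand, or to the TATA box TATAAA on the coding strand. The motifs did not overlap in these windows.
Mmp11: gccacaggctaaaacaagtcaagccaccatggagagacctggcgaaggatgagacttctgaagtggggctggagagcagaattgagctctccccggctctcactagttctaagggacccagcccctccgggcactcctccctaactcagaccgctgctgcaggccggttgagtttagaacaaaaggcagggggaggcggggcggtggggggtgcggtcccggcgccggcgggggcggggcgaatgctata
Mmp13: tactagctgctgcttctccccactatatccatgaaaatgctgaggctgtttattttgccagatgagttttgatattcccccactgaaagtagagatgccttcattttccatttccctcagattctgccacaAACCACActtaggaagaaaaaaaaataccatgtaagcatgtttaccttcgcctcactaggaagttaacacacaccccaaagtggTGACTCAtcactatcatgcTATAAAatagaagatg
Timp3: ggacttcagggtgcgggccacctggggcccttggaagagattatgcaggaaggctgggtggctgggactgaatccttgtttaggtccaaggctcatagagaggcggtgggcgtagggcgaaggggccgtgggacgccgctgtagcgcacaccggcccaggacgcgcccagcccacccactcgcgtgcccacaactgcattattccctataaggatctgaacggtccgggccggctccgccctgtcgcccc

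The Mmp13 window held an AP-1 match at 35 to 29 bases before the start, a RUNX match at 119 to 113 and a TATA box at 16 to 11. AP-1 proteins of the Fos and Jun families and Runx2 are textbook regulators of Mmp13 in osteoblasts. The Mmp11 and Timp3 windows held none of the 4 motifs, nor did those of Mmp14, Timp1, Timp2 and Timp4. Mmp3, in the same metalloproteinase cluster on chromosome 9 as Mmp13, had an AP-1 match at 46 to 40 bases before its start and a TATA box at 7 to 2. Among all 32851 promoter windows of this length, 6.75% held the AP-1 motif, 4.4% the RUNX motif, 5.42% the RBPJ motif, which binds the DNA-binding partner of Notch, and 7.59% the TATA box. RefSeq windows were used for 8 of the 10 genes, not for Mmp2 and Mmp9. A match describes letters only, and binding was not measured.

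Mmp11, or stromelysin 3, is a secreted metalloproteinase known from the stroma around tumours. Its probe (A_51_P293087, mm7, chr10:75578932-75578991, minus strand) stood at -0.68 and -0.73 in Jagged1 MRK-003 and at 1.03 and 0.64 in Jagged1 DMSO. In vector MRK-003 it stood at -0.88 and -0.83, and in vector DMSO at -0.28 and -0.19. The Jagged1 DMSO arrays were the only ones above the reference RNA, and both MRK-003 groups lay below both DMSO groups.

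MRK-003 lowered Mmp11 by 2.90-fold in the Jagged1 co-cultures (log2 change -1.53 ± 0.14, SE, n = 2 per group, limma, adjusted p = 0.0414). The change was -1.71 on slide 1 and -1.36 on slide 2. In this comparison 0.185% of all probes tested were called, 61 in number, and 1 of the 14 probes described here was among them. The call was lost without any 1 of the 8 arrays, with limma's adjusted p at 0.0653 to 0.188 and the change at -1.73 to -1.34. It was also lost with median centring in place of loess, at -1.52.

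With the slide as a block, the adjusted p for Mmp11 in limma was 0.0144. With each array's median background it was 0.0111, and with both it was 0.00167. Jagged1 against vector in DMSO gave Mmp11 a change of 1.06 ± 0.14 (adjusted p = 0.182 in limma, SE, n = 2 per group), which passed with the median background and the block together at 1.08 (adjusted p = 0.0129). With median centring the same change was 0.64. In MRK-003 the Jagged1 and vector co-cultures differed by 0.15 ± 0.14 (adjusted p = 1 in limma, 95% interval -0.19 to 0.50).

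In the vector co-cultures MRK-003 changed Mmp11 by -0.62 ± 0.14 (adjusted p = 1 in limma), with -0.60 on slide 1 and -0.65 on slide 2. The interaction, which is the effect of Jagged1 in DMSO less its effect in MRK-003, was 0.91 ± 0.20 for Mmp11 and was not called (limma, adjusted p = 1). The difference between the MRK-003 responses with Jagged1 and with vector cells thus did not pass.

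Mmp13, or collagenase 3, cuts fibrillar collagen and is the main collagenase of rodent osteoblasts. Its probe (A_51_P184484, mm7, chr9:7280046-7280105, plus strand) stood at 3.40 and 2.52 in Jagged1 MRK-003 and at 4.99 and 4.22 in Jagged1 DMSO. In vector MRK-003 both arrays stood at 3.17, and in vector DMSO they stood at 4.19 and 3.45. The Jagged1 DMSO arrays were the highest of the 8, and replicate 1 was above replicate 2 in 3 of the 4 groups.

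MRK-003 changed Mmp13 in the Jagged1 co-cultures by -1.65 ± 0.40 (SE, n = 2 per group), with -1.59 on slide 1 and -1.70 on slide 2. This did not pass in limma (adjusted p = 0.276), but it did with the slide as a block (adjusted p = 0.0382). It also passed with the median background (-1.68 ± 0.25, adjusted p = 0.0377) and with both (adjusted p = 0.00339, SE 0.17). Jagged1 MRK-003 replicate 2 and Jagged1 DMSO replicate 2, the arrays with the most high-background spots, moved most between the corrections, to 3.17 and 4.74 with the median background.

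Between Jagged1 and vector in DMSO the change of Mmp13 was 0.78 ± 0.40 (limma, adjusted p = 0.666), or 1.10 ± 0.17 with the median background and the block (adjusted p = 0.0273). In MRK-003 the Jagged1 minus vector difference of Mmp13 was -0.21 ± 0.40 (95% interval -1.20 to 0.78), and 0.09 ± 0.25 with the median background. In the vector co-cultures MRK-003 changed Mmp13 by -0.65 ± 0.40, as -1.02 on slide 1 and -0.29 on slide 2. The interaction was 0.99 ± 0.57 for Mmp13. None of these last 3 was called (limma, adjusted p = 1 for each).

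Timp3 binds to the matrix and inhibits metalloproteinases and several ADAM proteases. Its probe (A_51_P463765, mm7, chr10:85907162-85907221, plus strand) stood at 0.40 and 0.61 in Jagged1 MRK-003 and at -0.78 and -1.05 in Jagged1 DMSO. In vector MRK-003 it stood at 0.31 and 0.58, and in vector DMSO at -0.16 and -0.60. All 4 MRK-003 arrays were above the reference RNA and all 4 DMSO arrays below it, with the Jagged1 DMSO arrays lowest.

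The change of Timp3 with MRK-003 in the Jagged1 co-cultures was 1.42 ± 0.19 (SE, n = 2 per group), 1.18 on slide 1 and 1.66 on slide 2. It missed the threshold in limma (adjusted p = 0.0789) and passed with the slide as a block (adjusted p = 0.0401). It passed with the median background at 1.47 (adjusted p = 0.0263), and with that background and the block together (adjusted p = 0.00733). In the vector co-cultures the change of Timp3 was 0.83 ± 0.19 (limma, adjusted p = 1), 0.47 on slide 1 and 1.18 on slide 2. Jagged1 against vector gave Timp3 -0.54 ± 0.19 in DMSO (adjusted p = 0.593 in limma) and 0.06 ± 0.19 in MRK-003 (adjusted p = 1 in limma, 95% interval -0.41 to 0.53). The interaction was -0.60 ± 0.27 for Timp3 and was not called (limma, adjusted p = 1).

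**Figure D1:**
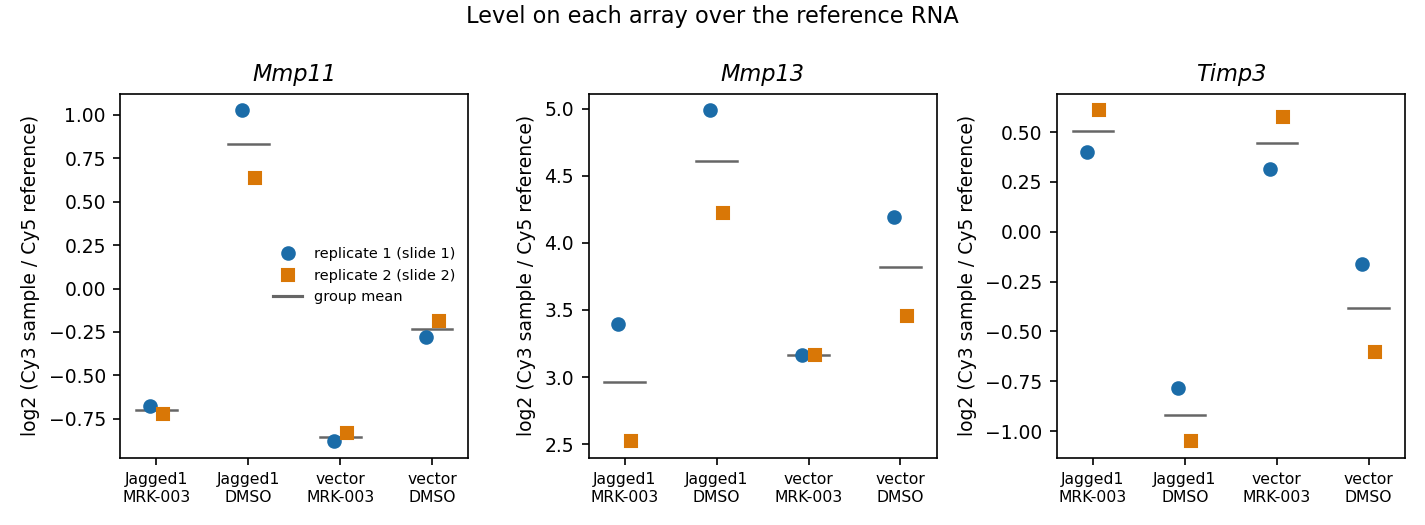
Level of Mmp11, Mmp13 and Timp3 on each of the 8 arrays, as log2 of Cy3 sample over Cy5 reference, by group. Circles are replicate 1 (slide 1), squares replicate 2 (slide 2) and lines the mean of 2 arrays, and in Jagged1 DMSO the first 2 genes were highest and Timp3 was lowest.

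The groups could be put in order by their mean levels. For Mmp11 the means were 0.83 in Jagged1 DMSO, -0.23 in vector DMSO, -0.70 in Jagged1 MRK-003 and -0.86 in vector MRK-003, and the difference of the last pair, 0.15, was close to its standard error of 0.14. For Mmp13 the order was 4.61 in Jagged1 DMSO, 3.82 in vector DMSO, 3.17 in vector MRK-003 and 2.96 in Jagged1 MRK-003, and the MRK-003 pair overlapped. With the median background that pair changed places, at 3.28 in Jagged1 MRK-003 and 3.20 in vector MRK-003. For Timp3 it was 0.51 in Jagged1 MRK-003, 0.45 in vector MRK-003, -0.38 in vector DMSO and -0.92 in Jagged1 DMSO, and again the MRK-003 pair overlapped. Comparisons that use the Jagged1 DMSO arrays share them, so the Jagged1 effect in DMSO and the MRK-003 effect are not separate evidence.

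Mmp2, Mmp9 and Mmp14 form the next group by role. Mmp2 and Mmp9 are the gelatinases, which cut denatured collagen and basement membrane collagen, and Mmp14 is a membrane-bound enzyme that activates the Mmp2 precursor together with Timp2. Mmp2 (A_51_P341736, mm7, chr8:91446191-91446250) stood at 2.11 and 1.42 in Jagged1 MRK-003, 2.24 and 2.17 in Jagged1 DMSO, 2.03 and 1.50 in vector MRK-003, and 2.12 and 1.76 in vector DMSO. Slide 1 was above slide 2 in every group. MRK-003 changed Mmp2 by -0.44 ± 0.28 with Jagged1 cells and by -0.18 ± 0.28 with vector cells, and neither was called (limma, adjusted p = 1.0 and 1). The first of these was -0.13 on slide 1 and -0.75 on slide 2.

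Mmp14 had 2 probes in different parts of the gene. The first (A_51_P216303, mm7, chr14:49308207-49308266) stood at 1.10 and 1.35 in Jagged1 MRK-003, 1.19 and 1.00 in Jagged1 DMSO, 0.98 and 1.30 in vector MRK-003, and 1.22 and 0.86 in vector DMSO. The second (A_52_P304128, mm7, chr14:49307013-49307072) stood at 1.60 and 0.64, 1.56 and 0.99, 1.45 and 0.96, and 1.53 and 1.26 in the same order of groups. On the first probe slide 2 was the higher slide in both MRK-003 groups and the lower one in both DMSO groups, whereas on the second probe slide 1 was higher in every group. The MRK-003 effect with Jagged1 cells was 0.13 ± 0.18 on the first Mmp14 probe and -0.15 ± 0.37 on the second, and neither probe was called in any comparison.

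Mmp9 was close to the array's background, with raw Cy3 signals of 48.1 to 130 over its 2 probes. The probe printed on 10 spots (A_52_P507214, mm7, chr2:164695774-164695833) stood at -1.86 and -0.61 in Jagged1 MRK-003, -1.48 and -0.61 in Jagged1 DMSO, -1.81 and -1.77 in vector MRK-003, and -1.89 and -1.75 in vector DMSO. The 3 high values were on the 3 arrays with high-background spots. With each array's median background all 8 lay between -1.92 and -1.83. Both corrections add an offset of 50 to the signals, which narrows the range of dim probes. The scanner software's processed ratio, without that offset, ran from -3.22 to -2.23. With the median background the Jagged1 effect in DMSO was -0.02 ± 0.08 in place of 0.78 ± 0.45. The other Mmp9 probe (A_51_P401797, mm7, chr2:164695457-164695516) likewise had 0.67 ± 0.60 for that effect, and -0.12 ± 0.27 with the median background.

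Mmp3, or stromelysin 1, which can activate other metalloproteinases, was the dimmest gene described, with raw Cy3 signals of 40.8 to 55.5. Its probe (A_51_P255699, mm7, chr9:7453874-7453933) was well above background on 5 of 8 arrays, at least 1 in each group. Both arrays were so only in Jagged1 DMSO, and the probe passed the filter on dim probes through that group alone. It stood at -5.21 and -2.47 in Jagged1 MRK-003, -4.13 and -2.24 in Jagged1 DMSO, -5.33 and -4.53 in vector MRK-003, and -5.31 and -4.01 in vector DMSO. Both highest arrays, Jagged1 MRK-003 replicate 2 and Jagged1 DMSO replicate 2, were among those with high-background spots. With the median background the levels ran from -5.37 to -4.22, and the Jagged1 effect in DMSO was -0.07 ± 0.46 in place of 1.47 ± 1.06 (limma, adjusted p = 0.982 and 0.707). No difference between groups in Mmp3 or Mmp9 was detectable at these signals.

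**Figure D2:**
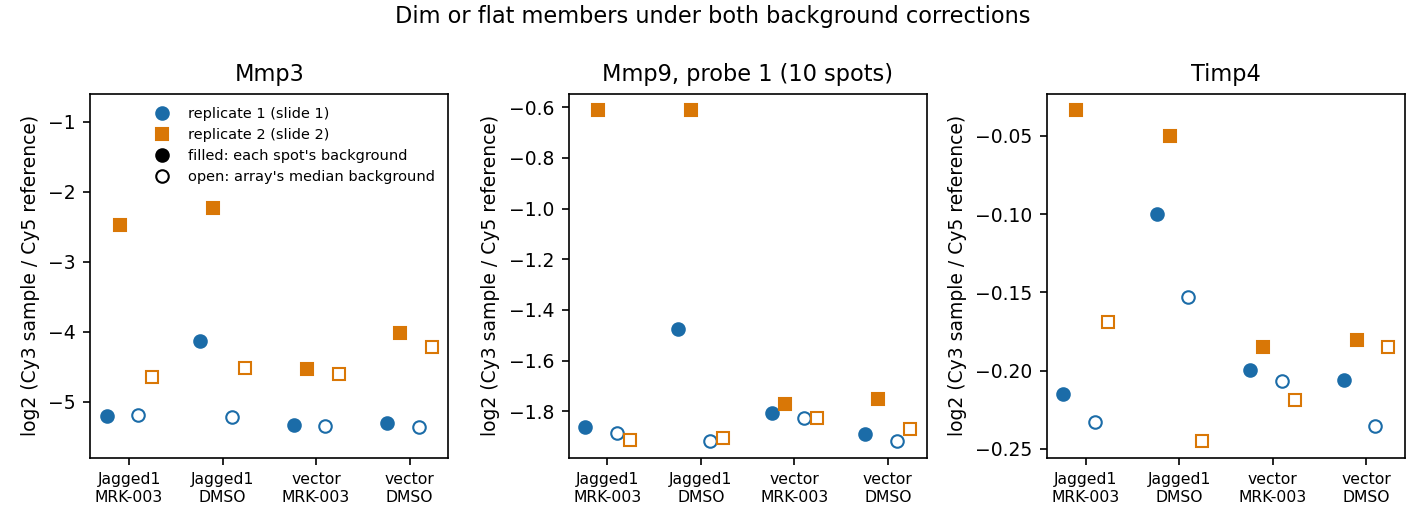
Level of Mmp3, of the 10-spot Mmp9 probe and of Timp4 on each array, as log2 of Cy3 sample over Cy5 reference, by group. Filled symbols use each spot's own background and open symbols the array's median background. The high filled values of Mmp3 and Mmp9 came down to the level of the other arrays with the median background. That background put all 8 Mmp9 values between -1.92 and -1.83, a range narrowed by the offset of 50 added to dim signals.

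Among the inhibitors, Timp1 is secreted and blocks most soluble metalloproteinases. It had 3 probes, and their 60-base sequences are shown because the first was saturated in Cy3 on 3 slide 1 arrays (Jagged1 MRK-003, vector MRK-003 and vector DMSO) while the other two were not on any. All lie on the plus strand of chromosome X in mm7, the first at chrX:19307699-19307758, the second at chrX:19305929-19305988 and the third at chrX:19305989-19306238. The third starts at the base after the second ends, and its listed interval of 250 bases is longer than the probe.
Timp1 probe 1: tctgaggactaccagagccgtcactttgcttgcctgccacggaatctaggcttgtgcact
Timp1 probe 2: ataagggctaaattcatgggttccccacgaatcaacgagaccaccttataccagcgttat
Timp1 probe 3: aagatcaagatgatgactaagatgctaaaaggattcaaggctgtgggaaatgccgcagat

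Timp1 probe 2 stood at 2.00 and 1.25 in Jagged1 MRK-003, 1.67 and 1.41 in Jagged1 DMSO, 1.90 and 1.23 in vector MRK-003, and 1.78 and 1.12 in vector DMSO. Slide 1 was the higher one in each group, and probe 3 had the same order of slides, over a range of 1.40 to 2.24. The saturated probe 1 kept to 1.56 to 1.83, a narrower range. MRK-003 with Jagged1 cells gave 0.09 ± 0.36 on probe 2 and 0.18 ± 0.34 on probe 3, and neither was called in any comparison. Probe 1 was not called either, but its saturated arrays give only a lower bound of the Cy3 signal, so its difference is not given.

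Timp2, which both inhibits Mmp2 and helps Mmp14 to activate it, stood at 1.11 and 0.29 in Jagged1 MRK-003, 0.82 and 1.02 in Jagged1 DMSO, 0.61 and 0.21 in vector MRK-003, and 1.09 and 0.45 in vector DMSO (A_52_P540219, mm7, chr11:118410877-118410936). Its arrays overlapped in every comparison of 2 groups, and the MRK-003 effect with Jagged1 cells was 0.29 on slide 1 and -0.73 on slide 2. Timp4 (A_51_P355427, mm7, chr6:115271716-115271775) was dim, with raw Cy3 signals of 74.6 to 160. It stood at -0.21 and -0.03 in Jagged1 MRK-003 and at -0.10 and -0.05 in Jagged1 DMSO. In vector MRK-003 it stood at -0.20 and -0.19, and in vector DMSO at -0.21 and -0.18. With the median background all Timp4 values lay between -0.25 and -0.15. The offset of 50 in the background correction narrows the range of dim probes, so these values do not show that Timp4 was unchanged. Neither gene was called in any comparison. For the 7 probes of Mmp2, Mmp14, Timp1, Timp2 and Timp4 other than the saturated one, the 95% intervals of the MRK-003 effect with Jagged1 cells ran from -1.13 to 1.00 at their widest. They are not adjusted for the number of probes and come from the fit without the slide as a block. They are not a limit of detection, since Mmp13 at -1.65 and Timp3 at 1.42 were not called in that fit either. The lack of a call thus does not show that these genes were unchanged.

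**Figure D3:**
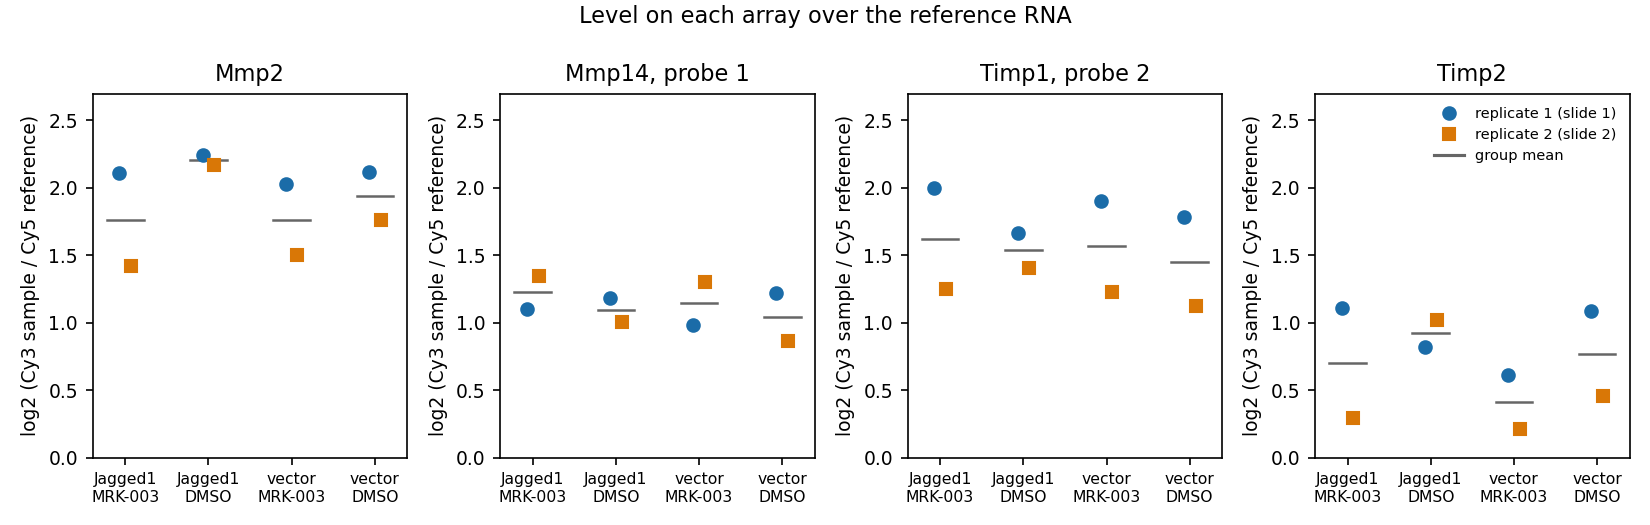
Level of Mmp2, the first Mmp14 probe, the second Timp1 probe and Timp2 on each array, as log2 of Cy3 sample over Cy5 reference, by group. Circles are replicate 1 (slide 1), squares replicate 2 (slide 2) and lines the mean of 2 arrays; for Mmp2 and Timp1 the circles lie above the squares in every group.

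Over the 14 probes, the median change with MRK-003 in Jagged1 co-cultures was -0.17, beside 0.00 over all probes, with 5 above and 9 below 0. It was 0.00 with the median background and 0.01 with the processed ratio. For 5 of the 14 both arrays of 1 group lay above both of the other, as they did for 32.9% of all probes. Between Jagged1 and vector in DMSO 0 of 14 were called in limma (2 at an unadjusted p under 0.05, as were 7.92% of all probes), beside 0.00907% of all probes, and 7 of 14 did not overlap, beside 47.3%. The median change over the 14 was 0.14 there, 0.06 with the median background and -0.19 with median centring. In MRK-003 that comparison gave 0 calls in limma among the 14 (0 at an unadjusted p under 0.05) and 0% of all probes (239 at an unadjusted p under 0.05), and 1 of 14 did not overlap, beside 16.5%. MRK-003 in vector co-cultures also gave 0 calls in limma and 0% of all probes (2 of 14, and 1062 of all, at an unadjusted p under 0.05), and 4 of 14 did not overlap, beside 25.2%. No test of these shares against those of all probes was made. The probes without overlap included the saturated Timp1 probe 1 in each of these comparisons except Jagged1 against vector in MRK-003.

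With the slide as a block 3 of 14 probes were called for MRK-003 with Jagged1 cells, those of Mmp11, Mmp13 and Timp3, beside 1.46% of all probes. The same 3 were called with the median background, beside 1.66%, and with both, beside 8.68%. The scanner software's processed ratio gave 2 of 14, Mmp11 and Mmp13, beside 0.753%, and for Jagged1 in DMSO it gave 0 of 14, beside 0.0423%. In the fit with both, 2 of 14, Mmp11 and Mmp13, were also called for Jagged1 against vector in DMSO, beside 3.06%. The interaction had 0 calls among the 14 in each of these fits (1 of 14, and 597 of all probes, at an unadjusted p under 0.05 in the fit without block), beside 0% of all probes, or 0.233% with both.

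**Figure D4:**
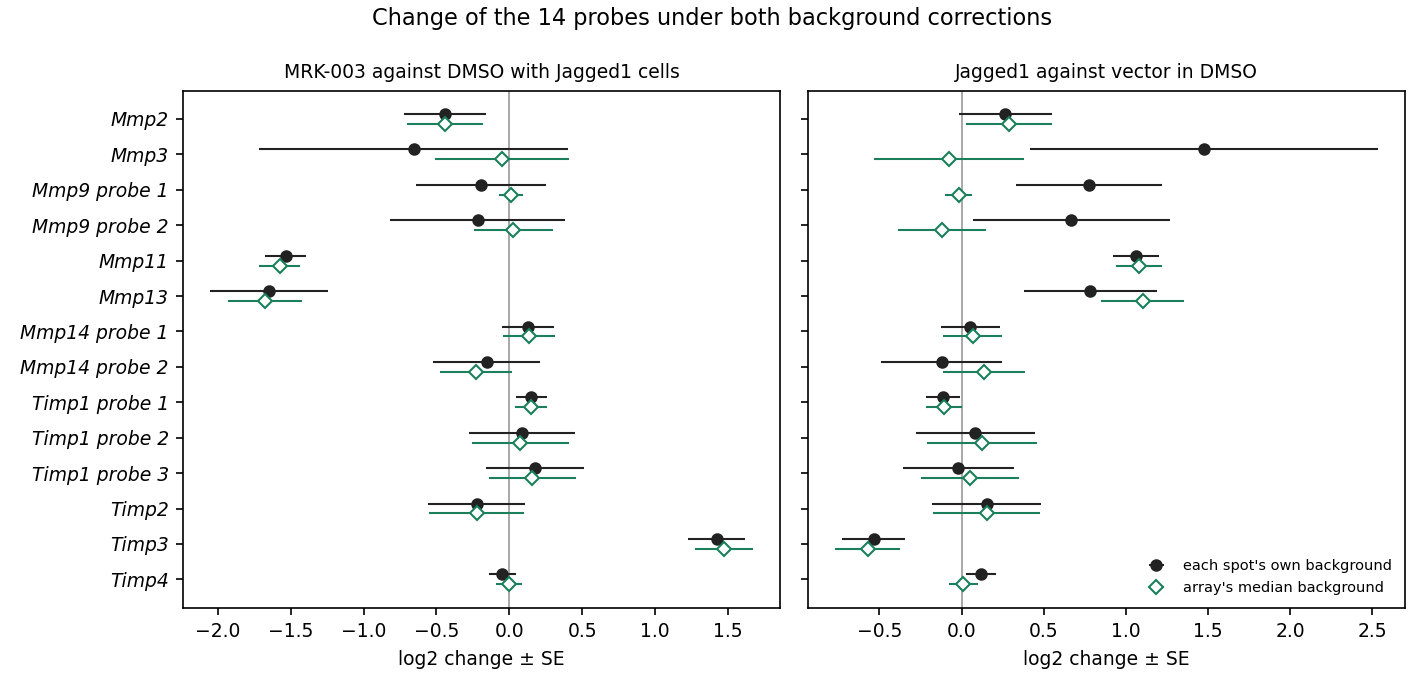
Log2 change with its standard error of the 14 probes for MRK-003 against DMSO with Jagged1 cells (left) and Jagged1 against vector in DMSO (right). Timp1 probe 1 is drawn although it was saturated in Cy3 on 3 arrays. Black circles use each spot's own background and open diamonds the array's median background; Mmp11, Mmp13 and Timp3 stand away from 0 on the left under both, and Mmp3 and Mmp9 stand away from 0 on the right only with the spots' own background.

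Other genes of the pathway were read from 3 lists. Of 17 other metalloproteinases 12 were tested, and Mmp1b, Mmp8, Mmp12, Mmp15 and Mmp27 were not. None of the 12 was called in any comparison by limma. At an unadjusted p under 0.05 there were 2 for MRK-003 with Jagged1 cells and 2 for Jagged1 in DMSO. The shares of all probes were 7.41% and 7.92%. Their median change with MRK-003 in Jagged1 co-cultures was 0.00 over the 12. Mmp16, a membrane-bound metalloproteinase, had the smallest p there, with levels of 0.48 and 0.23 in Jagged1 MRK-003, -0.27 and -0.03 in Jagged1 DMSO, 0.32 and 0.62 in vector MRK-003, and 0.24 and 0.59 in vector DMSO. The Jagged1 DMSO arrays were the lowest. The MRK-003 effect on Mmp16 with Jagged1 cells was 0.51 ± 0.18 (limma, adjusted p = 0.569). With the median background and the block it was called at 0.91 (limma, adjusted p = 0.00283). Mmp17, named after its values were seen, was called in that fit at -0.36 (adjusted p = 0.0470). The fit with both called 8.68% of all probes in this comparison and 3.06% for Jagged1 in DMSO. The Jagged1 effect on Mmp16 in DMSO was -0.56 ± 0.18 (adjusted p = 0.568 in limma, or 0.0132 with both), and the interaction was -0.45 ± 0.26. The smallest p in the remaining comparisons were those of Mmp10, at 0.16 ± 0.09 for Jagged1 in MRK-003 (0.02 with the median background), and Mmp28, at -0.14 ± 0.14 for MRK-003 in vector co-cultures, and neither was called.

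All 18 activators, other inhibitors and partners were tested, with a median change of -0.04 over the list for MRK-003 with Jagged1 cells. In limma 1 was called, in that comparison only, beside 0.185% of all probes. This was Itgb3, the integrin beta subunit that pairs with Itgav to bind matrix and can hold Mmp2 at the cell surface. Itgb3 stood at 0.45 and 0.23 in Jagged1 MRK-003, 2.13 and 1.92 in Jagged1 DMSO, 0.37 and 0.33 in vector MRK-003, and 1.02 and 0.77 in vector DMSO. As with Mmp11, the Jagged1 DMSO arrays were highest and both MRK-003 groups lay lowest. With Jagged1 cells the change of Itgb3 with MRK-003 was -1.68 ± 0.14 (limma, adjusted p = 0.0338), and with vector cells it was -0.54 ± 0.14 (adjusted p = 1). Jagged1 gave 1.14 ± 0.14 in DMSO, not called in limma (adjusted p = 0.162) but called with the slide as a block (adjusted p = 0.0331). The interaction of Itgb3 was 1.14 ± 0.19, called only with the median background and the block together (adjusted p = 0.0367). Plau, the urokinase that turns plasminogen into plasmin, had the smallest p for Jagged1 in MRK-003, at 0.66 ± 0.28, and 0.07 with the median background.

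The 11 transcription factors that can act on metalloproteinase promoters were all tested, and none was called in limma in any comparison. At an unadjusted p under 0.05 there were 7 of 11 for MRK-003 with Jagged1 cells, 5 for MRK-003 with vector cells and 4 for Jagged1 in DMSO, beside 7.41%, 3.21% and 7.92% of all probes. Junb, an AP-1 subunit, had the smallest p for MRK-003 with Jagged1 cells and stood at -0.84 and -0.68 in Jagged1 MRK-003, 0.09 and 0.39 in Jagged1 DMSO, -0.94 and -0.71 in vector MRK-003, and 0.16 and -0.08 in vector DMSO. Its arrays separated by MRK-003 with both kinds of tumour cell. The effect on Junb was -0.998 ± 0.16 with Jagged1 cells (adjusted p = 0.105 in limma, 0.0451 with the slide as a block) and -0.87 ± 0.16 with vector cells (adjusted p = 1). With the block, 2 other factors were called higher in the first of these comparisons, Fosl2 at 1.40 (adjusted p = 0.0417) and Ets2 at 0.59 (adjusted p = 0.0464). That fit called 1.46% of all probes. With the median background and the block, 5 of 11 were called higher and 2 lower, beside 8.68% of all probes. They included Jun at 1.07 (adjusted p = 0.0395) and Runx2 at 0.83 (adjusted p = 0.0444), both higher. For the remaining comparisons the smallest p were those of Etv4 (Jagged1 in DMSO, 0.55 ± 0.14), Fos (Jagged1 in MRK-003, -1.18 ± 0.59) and Jun (interaction, -0.81 ± 0.41), and none of these was called.

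The genes with the pattern most like each of the 3 were sought by Pearson r over the 8 arrays among 20338 genes, as a description. All 8 arrays share the reference RNA and the 2 slides. For Mmp11 they were Tgfb1 (r = 0.997), Pnrc1 (r = 0.994) and Prag1 (r = 0.990). MRK-003 with Jagged1 cells changed Tgfb1 by -1.52 (limma, adjusted p = 0.0365) and Prag1 by -1.81 (adjusted p = 0.0442), and Pnrc1, at -0.56, was not called. For Mmp13 they were Pxdc1 (r = 0.984), Serpina3g (r = 0.979) and Zcchc14 (r = 0.978), and for Timp3 they were Nubp1 (r = 0.989), Dhrs13 (r = 0.987) and Srsf2 (r = 0.987). None of these last 6 was called in that comparison.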

How the data were processed

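The authors read Agilent 2-colour mouse arrays with Agilent Feature Extraction 9.5.3.1, and probes are placed on build mm7, per the file headers. From the deposited files, the intensity values taken were each spot's mean signal and its local background (median) in both channels, with no normalization, and, for an alternative, that software's processed signals. A value table that the authors deposited held log2 values. They matched the processed signals' log2 ratio of sample over reference after a shift of 1 constant on each array (100% of probes within 0.02), and its column medians were 0.12 to 0.20. It was not used further. The aligner of probes to genes is not given in the sources used here, and the exon or UTR of each probe was not determined. All samples carried Cy3 and the reference Cy5, so dye bias stays in each level and cancels in differences between groups.

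Background correction was by normexp (offset 50), and ratios were normalized by loess within each array. Spots marked as outliers were left out (303 probes), spots of a probe were averaged, and 7811 dim probes were removed, since a probe had to be well above background in Cy3 on both arrays of 1 group or more. limma 3.58.1 in R 4.3.3 fitted the means of the 4 groups, and p-values were adjusted by Benjamini-Hochberg over 33060 probes in each of 5 comparisons. A probe was called at an adjusted p under 0.05. The spread was estimated over all groups, and the small number of arrays limits the precision. Errors are limma's standard errors.

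Replicate numbers paired the arrays by slide, as the headers give it: deviations from the group means correlated at 0.38 to 0.75 over the 6 pairs of groups, or 0.36 to 0.86 with the array's median background. The fit with the slide as a block, the array's median background, both together (added after seeing the data), the processed ratio, median centring, no dim filter, 1 probe a gene and leaving out each array were the alternatives. The genes described and the lists were chosen with earlier results of these data known. Named from each list were called genes, up to 3 with the smallest p in each comparison, or else the 1 with the smallest p. For MRK-003 with Jagged1 cells, Fosl1, Fosl2, Ets2, Jun, Jund, Fos and Runx2 were named after their values were seen. Marker lists for osteoclasts, neutrophils and endothelial cells had array means of 0.34 to 0.46, -0.01 to 0.09 and -0.21 to -0.02, and S100a8 was too dim. Promoter sequences are RefSeq's, and motifs were searched by script.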

Additional observations from a re-analysis of the deposited data

How the results depend on the processing

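Of 470 log2 changes of the 14 probes recomputed under alternatives that kept all arrays, 460 stayed on the same side of the threshold and none that was called changed direction. Nearly all of the 460 were uncalled changes that stayed uncalled, because the main fit called only 1, that of Mmp11. The count therefore says little about how stable that call was. The number of probes called between Jagged1 and vector in DMSO was 3, against 76 with the replicate block, 48 with the array's median background, 14 with the scanner software's processed ratio, 0 with median centring, 1011 with the median background and the block, and 0 to 1 when 1 array was left out. For MRK-003 with Jagged1 cells the count was 61, against 484, 548, 249, 0 and 2869 in the same order, and 0 to 10 when 1 array was left out. Of the 14 probes, 1 was called in that comparison, against 3 with the replicate block, 3 with the median background, 2 with the processed ratio, 0 with median centring, 3 with the median background and the block, and 0 to 0 when 1 array was left out. For Jagged1 in DMSO it was 0, against 2 with the median background and the block. The interaction had 0 calls over all probes, against 77 with the median background and the block, and Jagged1 in MRK-003 had 0, against 0 to 1 when 1 array was left out, with the 1 call found without Jagged1 MRK-003 replicate 1. The cause of these differences was not tested. The block changed no other call among the 14 probes than those of Mmp13 and Timp3 for MRK-003 with Jagged1 cells. With 2 arrays a group, dim probes (Mmp3, Mmp9 and Timp4) are limited by signal over background.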
